A study of Homo sapiens with 13 samples.

Results

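The loci described here are stretches of the human genome (build hg19) that were reported as enriched for compound 4 in both of its deposited peak lists. Compound 4 is a synthetic polyamide that carried psoralen and biotin, and it was given to cells of H1, an established line of human embryonic stem cells. One list is named for the 400 nM dose and held 1581 peaks. The other is named for compound 4 without a dose, is called the undosed list below, and held 3074 peaks. Members were chosen by overlap: a peak of one list was kept where it shared at least 1 bp with a peak of the other. This rule kept 882 undosed peaks, which is 28.7% of that list, and 866 peaks of the 400 nM list, which is 54.8%. The lists differ in length, and with lists of equal length the shares were 49.0% and 49.6%. Joining overlapping peaks of both lists gave 3492 compound 4 loci, of which 710 (20.3%) held a peak of each list and are called shared loci. The others were 2099 loci of the undosed list alone and 683 of the 400 nM list alone. Joining also brought 1 undosed peak on chromosome Y into a shared locus without overlapping a 400 nM peak itself, so the shared loci held 883 undosed peaks. All peaks of the 4 deposited lists, those of compound 2 included, joined into 4620 regions.

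The series comprised 13 libraries in 7 groups, all from H1 cells. Compounds 2 and 4 had a group at each of 20 nM and 400 nM, compounds 5 and 6 had one at 400 nM, every treatment lasted 24 h and had 2 libraries, and 1 library was of input DNA. Whether the paired libraries came from separate cultures is not said, and the lists give 1 set of peaks rather than values per library, so no spread between replicates could be computed. Which doses or libraries the undosed list rests on is not given in the sources used here. If it includes 400 nM libraries, part of the sharing holds by construction. Sequencing depth is unknown. The series text describes enrichment as measured against the input, but not the settings. The input and compounds 5 and 6 were not analysed here, so no background level from them stands beside these loci.

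Pyrrole-imidazole polyamides are built from ring units that lie in the minor groove of DNA, and the order of the rings sets which base pairs a molecule prefers. Psoralen slides between base pairs and forms a covalent bond with pyrimidines under long-wave ultraviolet light, which fixes the molecule where it lies. Biotin then allows the bound fragments to be pulled down on streptavidin beads, and a place where the molecule sat often appears as a pile of sequenced fragments. Because fragments extend to both sides of the bound base pairs, the reported interval is wider than the site itself.

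The shared loci placed highest in both lists together are described first. They were picked by the sum of their ranks, so that they stand high in both lists follows from the choice. A peak's place is its rank by the authors' score within its own list, with 1 the highest. The score has no stated scale and is compared only within a list. The locus at 12q23.3 (chromosome 12, 108350375 to 108351247) had the lowest sum of ranks. Its 3 undosed peaks ranked 1, 2 and 4, with scores of 982, 933 and 742, and its 3 peaks at 400 nM ranked 2, 3 and 24, with scores of 254, 234 and 160. It was followed by 1p36.22 (chromosome 1, 9283113 to 9283837), which held undosed ranks 3 and 12 and ranks 4 and 8 at 400 nM. Both undosed entries there are 1 interval, listed again with another score. The locus at 20p12.1 (chromosome 20, 13829004 to 13829631) held the highest 400 nM peak and undosed rank 6.

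At 12q13.13 (chromosome 12, 53311888 to 53312219) a single narrow peak in each list, 332 bp undosed and 218 bp at 400 nM, ranked 7 and 5. The locus at 2q33.3 (chromosome 2, 207911068 to 207911383) was likewise a single narrow peak in each list, ranked 10 and 20. At 1p36.13 (chromosome 1, 16463045 to 16463888) the ranks were 5 and 10, and a second 400 nM peak, ranked 433, reached 677 bp to the right of the undosed midpoint. The 10 loci were completed by 10p12.31 (chromosome 10, 21516391 to 21517193; ranks 8 and 7), 14q22.3 (chromosome 14, 55701164 to 55701878; 15 and 9), 10q24.2 (chromosome 10, 100035549 to 100036408; 13 and 13) and 20p11.21 (chromosome 20, 22519121 to 22519967; 14 and 17). In 8 of these 10 loci at least 1 list held more than 1 peak, so the highest-placed loci were seldom a single interval.

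**Figure D1:**
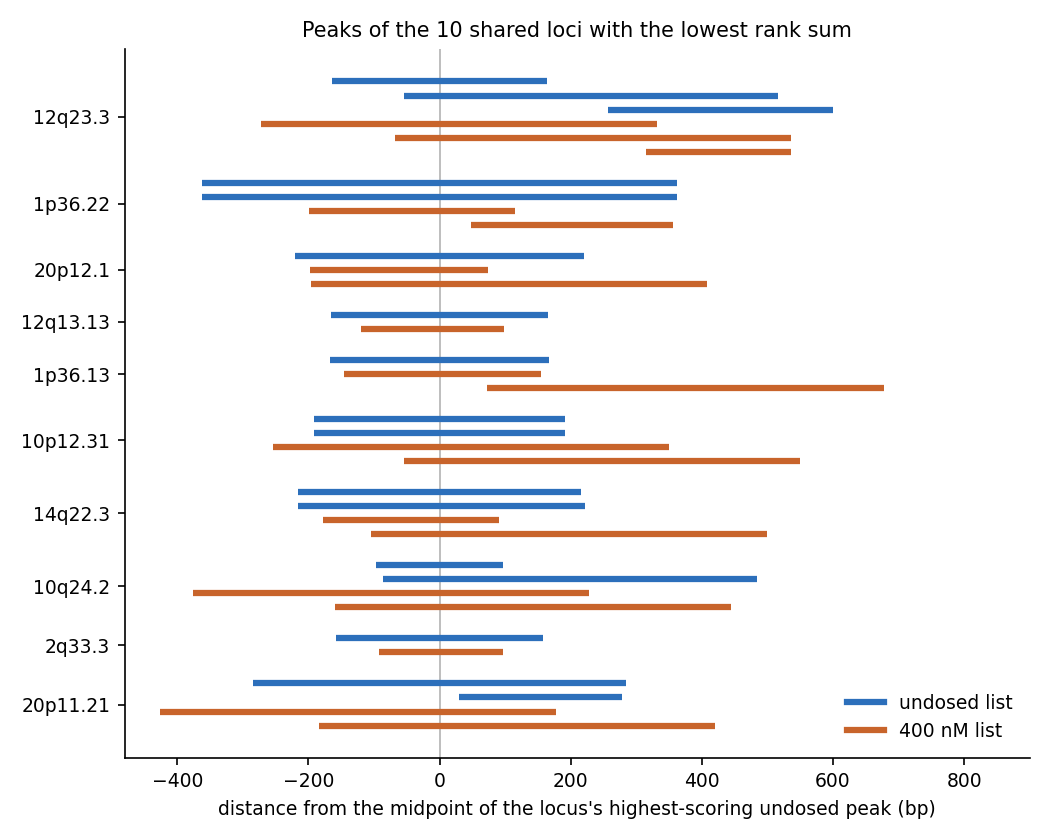
Peaks of the 10 shared loci with the lowest sum of ranks, drawn to scale as bars against the distance in bp from the midpoint of the locus's highest-scoring undosed peak; each bar is 1 peak, blue for the undosed and orange for the 400 nM list. At 12q13.13 and 2q33.3 the 400 nM bar lies within the undosed one, and at 12q23.3 both lists show 3 overlapping peaks.

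In shared loci the peaks of both lists lay nearly on top of each other. The overlap rule itself limits how far apart they can be. Overlapping peaks of the usual widths, 570 bp undosed and 604 bp at 400 nM, have midpoints less than 604 bp apart. Between the midpoints of the highest-scoring undosed and 400 nM peak of a locus, the median distance was 30 bp, with quartiles of 10 and 58.8 bp and a maximum of 439 bp. In 633 of the 710 loci (89.2%) it was at most 100 bp, and in 18 (2.54%) it was over 200 bp. The 400 nM midpoint lay to the right in 345 loci, to the left in 355 and at the same base in 10, so the offset had no side. In the 421 loci with 1 peak of the usual width in each list the median was 26 bp. The offset was similar along the ranking: in 4 near-equal groups by rank sum, the median was 31.8, 29.0, 24.0 and 34.0 bp from the highest-placed to the lowest-placed group. The best peaks of a locus overlapped by a median of 550 bp.

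**Figure D2:**
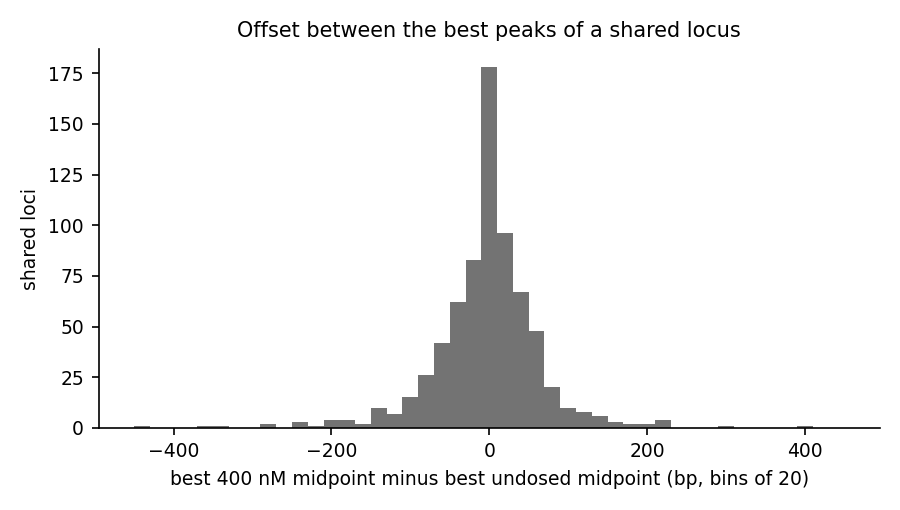
Histogram of the midpoint of the highest-scoring 400 nM peak minus that of the highest-scoring undosed peak, in bp and in bins of 20 bp, over the 710 shared loci. The counts gather around 0 on both sides, and 89.2% of loci lie within 100 bp.

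All shared loci overlapped by far more than the 1 bp required. The smallest overlaps of any shared locus were 142 bp at 10q11.23 (chromosome 10, 50393876 to 50394479), 143 bp at 11p14.1 (chromosome 11, 30061386 to 30061989) and 144 bp at 2q14.3 (chromosome 2, 125464378 to 125464981). Each of these loci was 604 bp wide, the width of its 400 nM peak, so a narrow undosed peak lay wholly within it. Their overlap is small because that peak was narrow, not because the peaks barely met. Just outside the rule, the closest pairs of an undosed-only and a 400 nM-only peak were 890 bp apart at 7q34 (chromosome 7, 138380878 to 138382941), 1097 bp at 17q11.2 (chromosome 17, 26629383 to 26631653) and 1782 bp at 3q26.31 (chromosome 3, 174540840 to 174543795). Only 12 undosed-only peaks had a 400 nM-only peak within 10 kb.

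Many shared loci were built of several peaks of a list, joined through overlap. Among the 710, 229 had more than 1 peak in at least 1 list (32.3%, exact 95% binomial interval 28.8 to 35.8%), where the figure was 10.1% for all compound 4 loci. It was 4.38% (3.55 to 5.35%) for the 2099 undosed-only and 4.69% (3.23 to 6.55%) for the 683 loci of the 400 nM list alone. A shared locus can reach this count in either list, the other loci in only 1, which raises the shared value. Counted in the undosed list alone, 165 shared loci had more than 1 peak (23.2%). In the 400 nM list alone, 153 did (21.5%). A locus with more peaks also has more chance to meet a peak of the other list, and loci of a list share their libraries, so these shares are a description and were not tested. In 89 shared loci both lists had several peaks, and 481 had 1 peak in each. Neighbouring peak starts within a shared locus were a median of 201 bp apart in the undosed list (173 steps) and 204 bp at 400 nM (156 steps). Steps of 190 to 220 bp made up 60.7% and 78.2% of them. Outside the shared loci such steps made up 70.7% of 92 undosed-only steps, a larger share, and 46.9% of 32 steps of the 400 nM list alone, a smaller one.

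Besides 12q23.3, only 2q35 (chromosome 2, 221410615 to 221411629) had 6 peaks, 3 in each list, with best ranks of 44 and 22. Another 5 loci had 5 peaks. Of these, 3 had 3 undosed and 2 400 nM peaks: 6p22.3 (chromosome 6, 24029430 to 24030362; ranks 31 and 19), 4q22.1 (chromosome 4, 89834081 to 89835062; ranks 95 and 128) and 4q31.3 (chromosome 4, 154164968 to 154165997; ranks 210 and 271). The other two were 1p21.2 (chromosome 1, 102123121 to 102124125; ranks 404 and 105), with 2 undosed peaks and 3 at 400 nM, and a locus on chromosome Y (16344080 to 16345381; ranks 378 and 532), with 4 undosed peaks and 1 at 400 nM. Multiple peaks went with a high place, though a locus with more peaks also has more chances of a good best rank. From the highest-placed to the lowest-placed of the 4 groups by rank sum, 59.0%, 38.4%, 22.03% and 9.55% had more than 1 peak in a list. The median locus width was 760.5, 634, 618 and 626 bp in the same order. Over all shared loci the width ran from 253 to 1302 bp with a median of 630 bp, and together they covered 487 kb. The median width was 570 bp for undosed-only loci and 604 bp for loci of the 400 nM list alone, so shared loci were the widest class.

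Peaks of unusual width were almost confined to shared loci. In the undosed list 2932 peaks were 570 bp wide, and 142 had another width, between 142 and 725 bp with a median of 239 bp. Of those 142, 140 lay in shared loci (98.6%, 95.005 to 99.8%), against 743 of the 570 bp peaks (25.3%, 23.8 to 27.0%). In the 400 nM list all 19 peaks that were not 604 bp wide lay in shared loci and ranked between 1 and 82. Unusual widths went with a high score, since 74 of the 142 were among the 100 highest undosed peaks, so width and rank are not separate observations. The 2 undosed exceptions were chosen for naming once their values were known: 20p11.21 (chromosome 20, 22989387 to 22989726; rank 27) and 9p13.2 (chromosome 9, 38168642 to 38168838; rank 397). The exception at 20p11.21 is another place than the shared locus in that band.

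Sharing fell along each ranking. It fell at about the same ranks in both lists, but this largely follows from the rule. Shared loci held similar numbers of peaks of each list (883 undosed, 866 at 400 nM), and these gathered at high ranks in both. Of the 100 highest peaks, 99 undosed and 100 at 400 nM lay in shared loci. The 20p11.21 peak at rank 27 was the only undosed peak above rank 229 that did not, and the first at 400 nM was at rank 187, at 19p13.3 (chromosome 19, 5463121 to 5463724). The next undosed peak without a partner, at rank 229, lay at 5p15.32 (chromosome 5, 5774808 to 5775377), and the next at 400 nM, at rank 242, at 12q22 (chromosome 12, 95320281 to 95320884). Between ranks 301 and 400 the share was 89% undosed and 96% at 400 nM. It was 73% and 66% between ranks 501 and 600, and 36% and 44% between ranks 701 and 800. From rank 1501 on, at most 14% of an undosed bin of 100 lay in shared loci, and between ranks 2701 and 2800 none did.

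**Figure D3:**
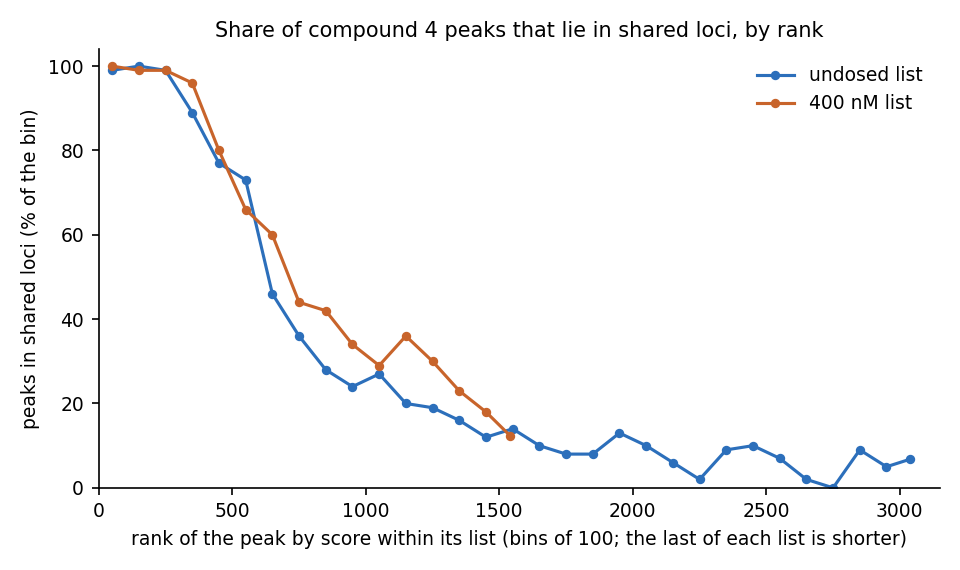
Share of compound 4 peaks that lie in shared loci (vertical axis, percent) against the rank of the peak by score within its own list, in bins of 100 peaks; blue is the undosed list and orange the 400 nM list. Both curves start at 99% or 100% and fall most between ranks 300 and 800.

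Within the shared loci the order was largely kept. Over the 710 loci, Spearman's rho between the best undosed and the best 400 nM score was 0.82. It is given as a description, without a test, because loci of a list come from the same libraries and both scores depend on how many fragments a place yields. Among the loci with more than 1 peak in a list rho was 0.87 (229 loci), and among those with 1 peak in each it was 0.74 (481 loci). Of the 71 loci highest in the undosed list, counting shared loci only, 50 were also among the 71 highest at 400 nM (70.4%). Of the 10 highest, 6 were. The median locus moved 69 places among the 710.

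**Figure D4:**
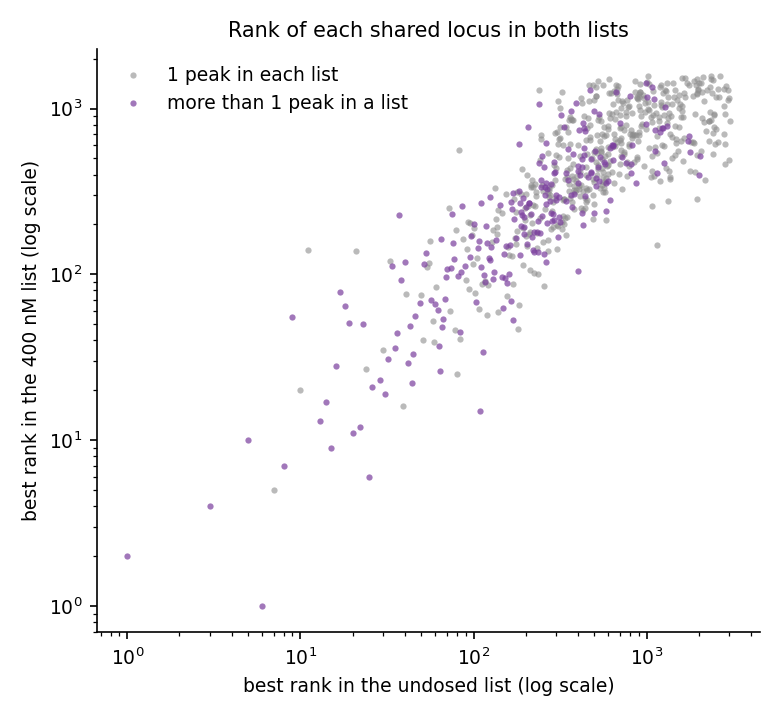
Best rank in the 400 nM list against best rank in the undosed list for each of the 710 shared loci, both axes on a log scale; purple points are loci with more than 1 peak in a list, grey points those with 1 peak in each. Points lie along a rising band (Spearman's rho 0.82) that widens toward the lower places, where grey points prevail.

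Some shared loci stood far apart in rank. In percent of list length, where 100 is the top, the median shared locus stood at 85.9 in the undosed and at 73.6 in the 400 nM list. Most stood lower at 400 nM (597 of 710), and the lists differ in length, so the same loci fill more of the shorter one. The steepest fall was at 2q14.2 (chromosome 2, 121754049 to 121754676), from undosed rank 526 to 1472, or 76.0 points. The others of the 5 largest falls were 3p26.3 (chromosome 3, 2329112 to 2329769; 607 to 1513), 16p12.3 (chromosome 16, 20389386 to 20389989; 240 to 1299), 6q13 (chromosome 6, 71389532 to 71390135; 462 to 1393) and 4q35.2 (chromosome 4, 187374604 to 187375207; 492 to 1378). The locus at 16p12.3 scored 195 in the undosed list, where the lowest score was 42.9. Its 400 nM score was 25.8, where the lowest was 24.4 and the highest 255.

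By more than 25 points, 25 loci stood higher at 400 nM and 147 lower, but this scale lowers any locus whose rank stays the same, and the median best rank was 433.5 undosed and 417.5 at 400 nM. The locus at 2q36.3 (chromosome 2, 227164088 to 227164693), named after its values were seen, went from rank 1249 to 1248 and counts as a fall of 38.3 points. The largest rise, by 66.3 points, was at 5q11.2 (chromosome 5, 55370520 to 55371136), from undosed rank 2993 to 492. It was followed by 6q16.1 (chromosome 6, 98319022 to 98319661; 2839 to 460), 12q14.3 (chromosome 12, 66776742 to 66777345; 2822 to 614), 1p36.21 (chromosome 1, 15437492 to 15438095; 2183 to 372) and 13q14.13 (chromosome 13, 46071539 to 46072254; 2814 to 698). Each of these 10 loci had 1 peak in each list, and their midpoints differed by 2 to 129 bp, so they stood apart in rank but not in position. The falls scored 24.7 to 25.8 at 400 nM, where the lowest score was 24.4. The rises scored 43.3 to 47.9 in the undosed list, where the lowest was 42.9. Near the lowest score, small differences in score span many ranks. With 1 list per arm these shifts have no replicate error.

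Shared loci lay on every chromosome. Per Mb of autosome there were 0.236 shared loci, and among autosomes the density ran from 0.125 on chromosome 21 to 0.387 on chromosome 16. The bands with the most were 16q12.1 and 16q21 (7 each), then 20p13, 22q12.3 and 6p22.3 (6 each). Neighbouring shared loci were a median of 2533 kb apart. Only 8 of 686 neighbouring pairs were under 10 kb apart. The tightest group, named after its values were seen, was at 15q22.31 (chromosome 15, 65243159 to 65247536). It held 3 shared loci with undosed ranks of 698, 850 and 1120 and 400 nM ranks of 767, 474 and 557, and a locus of the 400 nM list alone lay between them.

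The sex chromosomes differed from the autosomes in how many of their loci were shared. Chromosome X held 46 compound 4 loci, of which 23 were shared (50%, 34.9 to 65.1%), and chromosome Y held 10, of which 8 were (80.0%, 44.4 to 97.5%). On the autosomes 679 of 3436 were shared (19.8%, 18.4 to 21.1%). Loci were sparse on X in every class, but to an unequal degree. The X density was 0.63 times the autosomal one for shared loci (0.148 per Mb), 0.19 times for undosed-only loci (0.135 per Mb) and 0.0545 times for loci of the 400 nM list alone (0.0129 per Mb). Counted within the 400 nM list, 23 of 25 X loci were shared (92.0%, 74.0 to 99.0%), against 49.9% of autosomal loci.

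Within bands of rank the difference varied in size, and in some it was small. Among loci placed 1 to 500 in the undosed list, all 13 on X were shared and 91.4% of 409 on the autosomes. At places 501 to 1000, 5 of 10 on X were shared (18.7 to 81.3%) and 35.7% of 429 on the autosomes. At places 2001 to 3074 it was 1 of 11 on X (0.23 to 41.3%) and 4.44% of 990. At places 1001 to 2000 the values were 4 of 10 on X (40.0%, 12.2 to 73.8%) and 11.7% of 927 (9.66 to 13.9%). At places 1 to 400 of the 400 nM list all 10 X loci were shared, and 98.2% of 335 autosomal ones. At places 401 to 800 all 6 X loci were shared, and 55.8% of 328 autosomal ones. From place 801 on it was 7 of 9 on X (40.0 to 97.2%) and 24.0% of 697. The X loci in each bin are few, their intervals are wide, and the difference was not tested.

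The best-placed X locus was at the distal long arm (chromosome X, 153900195 to 153901029), with best ranks of 149 and 63 and 2 peaks in each list. It was followed by one in the middle of the long arm (119715640 to 119716243; ranks 213 and 106). On chromosome Y the highest was at 21464526 to 21465184, with ranks of 40 and 118, and the locus at 16344080 to 16345381 was the widest shared locus of all, with 4 undosed peaks and 1 at 400 nM. The median shared locus on X stood at 85.5 and 67.6 percent of list length, undosed and at 400 nM, and that on the autosomes at 85.8 and 73.8.

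**Figure D5:**
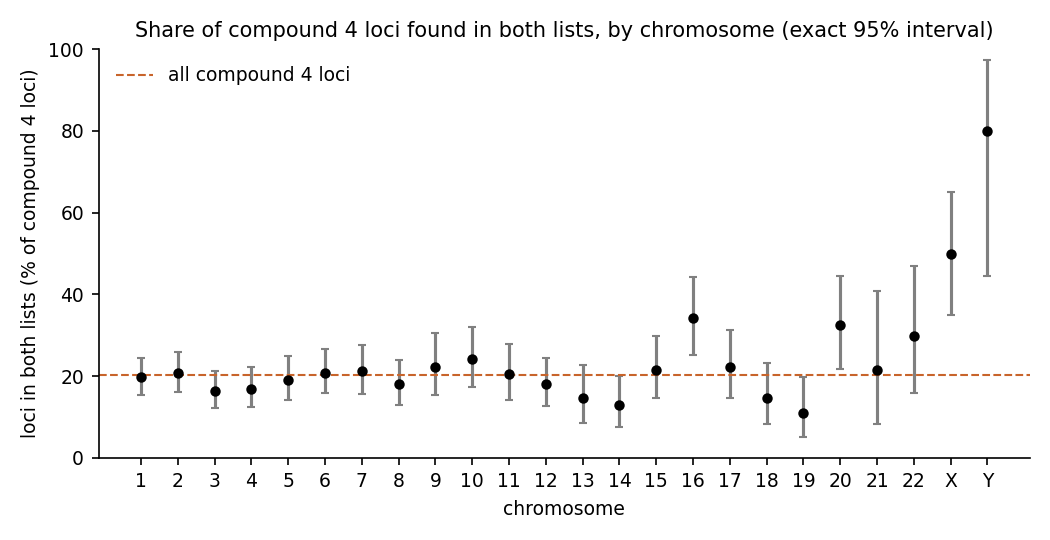
Share of compound 4 loci found in both lists (percent of all compound 4 loci of the chromosome), with exact 95% binomial intervals that cover counting error only; the dashed line is the value over all chromosomes, 20.3%. Chromosomes X (50%) and Y (80.0%) lie highest, 16 and 20 (34.3% and 32.4%) lead the autosomes, and 19 (11.0%) is lowest.

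Autosomes varied less. Chromosome 16 had the highest shared fraction (35 of 102 loci, 34.3%, 25.2 to 44.4%), followed by chromosome 20 (23 of 71, 32.4%, 21.8 to 44.5%). Chromosome 19 had the lowest (9 of 82, 11.0%, 5.14 to 19.8%). Its 9 shared loci stood beside 36 loci of the 400 nM list alone, 14 of which were in band 19q11 at the centromere, where no shared locus lay. None of the 9 lay between 19p12 and 19q12. On chromosomes 16, 17, 19 and 22 together, which are dense in genes, there were 78 shared loci (11.0%, 8.78 to 13.5%), against 7.15% of undosed-only loci and 14.2% of those in the 400 nM list alone. In the order 16, 17, 19 and 22, these chromosomes take up 2.92%, 2.62%, 1.91% and 1.66% of the genome's length. They held 4.93%, 3.24%, 1.27% and 1.55% of shared loci. Chromosome 16 alone held 35 of the 78, and chromosomes 19 and 22 lay below their share of length, so the 4 did not go the same way.

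Shared loci were almost absent from centromeric and variable bands. In the bands drawn as centromere, variable heterochromatin or acrocentric stalk there were 3 of 710 shared loci (0.423%, 0.0872 to 1.23%). These bands take up 8.29% of the genome's length. That length includes unsequenced stretches, where no peak can be placed, so it is not the share open to peaks. There were 25 of 2099 undosed-only loci (1.19%, 0.772 to 1.75%) and 30 of 683 in the 400 nM list alone (4.39%, 2.98 to 6.21%). The 3 loci, named after their values were seen, were a pair at 3p11.1 (chromosome 3, 89260558 to 89261167 and 89869660 to 89870350) and 1 at 8p11.1. Within 10 Mb of a centromere the autosomal classes were closer, with 14.1% of shared, 12.6% of undosed-only and 16.4% of 400 nM-only loci. Within 10 Mb of a chromosome end lay 12.7% of shared loci (10.3 to 15.3%), 9.53% of undosed-only (8.31 to 10.9%) and 8.35% of 400 nM-only loci (6.38 to 10.7%). The share of the genome's length within these distances was not computed. The values therefore compare the classes with each other only, and cannot say whether loci lean toward or away from centromeres or ends.

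In the remaining bands, the density of shared loci did not rise or fall steadily with Giemsa staining. From the lightest to the darkest bands it was 0.245, 0.212, 0.284, 0.286 and 0.217 per Mb. Light bands, which are richer in genes, take up 42.2% of the length of the whole genome, the bands above included. They held 45.1% of shared loci (41.4 to 48.8%). For undosed-only loci the share was 41.6% (39.5 to 43.7%) and for those of the 400 nM list alone 51.2% (47.4 to 55.1%). The darkest bands held 15.2% of shared loci (12.6 to 18.1%), 19.6% of undosed-only loci (17.9 to 21.3%) and 13.5% of those at 400 nM alone (11.0 to 16.3%). They take up 16.1% of the whole genome's length. On both measures the value of the shared loci lay between those of the classes found in 1 list.

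Shared compound 4 loci and compound 2 peaks rarely overlapped. How often unrelated lists of these lengths would overlap was not computed. The counts therefore only compare the classes of compound 4 loci with each other, and whether shared loci avoid compound 2 peaks was not tested. Compound 2 is another polyamide of the series with the same psoralen and biotin parts. Of the 710 shared loci, 1 overlapped an undosed compound 2 peak (0.141%, 0.00357 to 0.782%), where the value over all compound 4 loci was 1.37%. It was 47 of 2099 undosed-only loci (2.24%, 1.65 to 2.97%) and 0 of 683 loci of the 400 nM list alone, which allows up to 0.439%. The single locus, at 6q16.1 (chromosome 6, 93483612 to 93484215), ranked 820 and 936 for compound 4, and the compound 2 peak there ranked 367 and covered all of it (604 bp).

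No shared locus overlapped a 400 nM compound 2 peak, which allows a share of up to 0.423%, and 0.544% of all compound 4 loci did. The value was 16 of 2099 for undosed-only loci (0.762%, 0.436 to 1.23%) and 3 of 683 for loci of the 400 nM list alone (0.439%, 0.0907 to 1.28%). Within 1 kb of a 400 nM compound 2 peak lay 3 shared loci, at 1p36.21, 1p31.1 (chromosome 1, 73203064 to 73203676) and 3q26.1 (chromosome 3, 167048395 to 167048998). That at 1p36.21 is among the 5 largest rises above, and 2 compound 2 peaks, ranked 63 and 227, lay 804 and 600 bp from it.

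Shared loci stood higher in the undosed list than undosed-only loci, so the overlap with undosed compound 2 was also counted by rank. Among loci within the 1000 highest undosed compound 4 peaks, 1 of 553 shared loci (0.181%, 0.00458 to 1.003%) and 10 of 317 undosed-only loci (3.15%, 1.52 to 5.72%) overlapped one. The classes are spread unevenly over these ranks, with 394 shared and 35 undosed-only loci at ranks 1 to 500. At ranks 501 to 1000 the values were 1 of 159 shared loci (0.629%, 0.0159 to 3.45%) and 8 of 282 undosed-only loci (2.84%, 1.23 to 5.51%), and these intervals overlap. Below rank 1000 it was 0 of 157 shared loci, with an upper exact bound of 2.32%, and 37 of 1782 undosed-only loci (2.08%, 1.47 to 2.85%). The 157 shared loci are too few to decide whether the classes differ there. The 20p11.21 peak at rank 27, the highest undosed compound 4 peak without a 400 nM partner, was among the 10. Loci are not replicates and the undosed lists may share libraries or input treatment that are not stated, so no test was made of this difference.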

How the data were processed

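The 4 peak lists were used as deposited by the authors, with chromosome, start, end and, in column 4, the authors' score per peak, whose scale is not stated. The submitters' processing notes name hg19 as the build, with HOMER (version not named), CASAVA 1.8.2 and Bowtie 1.0 as tools. Settings of peak calling and pooling of libraries were not given in the sources used here. File starts count from 0, and printed starts count from 1. The members, lists and alternatives were chosen with earlier results of these data known. Peaks were joined where they overlapped by 1 bp or more, and a locus took the best rank of its peaks in each list. The loci named are the 10 with the lowest rank sum, the 5 largest rises and 5 largest falls in percent of list length, the 5 with the most peaks (ties by rank sum, with the other two tied loci named as well), those meeting compound 2 peaks, and 3 on either side of the overlap rule, with the 5 bands holding the most. Intervals are exact (Clopper-Pearson) 95% binomial intervals over loci or peaks and cover counting error only; a count of 0 allows 3 counts. No test was run, because each arm is 1 list. Bands and chromosome lengths came from circlize 0.4.16 and include unsequenced stretches. The work used Python 3.11.15, pandas 2.3.3, numpy 2.4.6, scipy 1.17.1 and matplotlib 3.10.9, and the joining of peaks was tested on simulated lists. Sequences and genes at the loci were not analysed here, since the genome used was hg19 and the gene tables at hand were of another build.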

Additional observations from a re-analysis of the deposited data

How the results depend on the processing

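Of 41 alternative values for 9 results, 29 kept within the interval of the reported value or, for the number of loci, within 1.5 times of it. The number of shared loci ran from 505 (upper 50% of each list by score) to 710 (repeated intervals counted once). With a reciprocal overlap of 50%, the member share was 24.9% of undosed and 48.5% of 400 nM peaks, the Spearman rank correlation was 0.78 and the median distance between neighbours was 2790 kb. In the upper 50% of each list these shares were 41.2% and 77.2%, the distance was 3446 kb and the overlap with compound 2 was 0%. With lists of equal length the shares were 49.0% and 49.6%. The Spearman rank correlation was 0.74 over loci with 1 peak in each list. The overlap with compound 2 was 0% for its 400 nM list alone. The planned searches for a sequence motif and for genes at the loci were not run, because no genome of the files' build was used here. No paired analysis was possible because each list gives 1 set of peaks with no values per library, and for the same reason no replicate could be left out. Depth per library is unknown.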
